A study of Mus musculus with 64 samples.

Results

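The Schlafen genes and the *Apol9* pair were described in epididymal white fat (eWAT) and brown fat (BAT) of mice that lack *Nampt* in fat cells. The 9 genes are *Slfn1*, *Slfn2*, *Slfn3*, *Slfn4*, *Slfn5*, *Slfn8*, *Slfn9*, *Apol9a* and *Apol9b*. They are the members of the families of *Slfn4* and *Apol9a*. These families were chosen by the measured difference between FANKO and WT BAT, in which both genes were among the largest rises. All 9 passed the filter on low counts, among 20249 genes that passed of 52636 in the table. The annotation lists 16 other genes named *Slfn* or *Apol*, of which 8 passed the filter.

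RNA was sequenced from BAT and eWAT at zeitgeber time (ZT) 6, 10, 18 and 22, where ZT 0 is lights on, with 4 samples in each of the 16 groups. FANKO mice carried floxed *Nampt* alleles, with loxP sites around exon 3, and Cre recombinase driven by the adiponectin promoter, which is active in adipocytes, so the other cells of a depot keep the gene. WT mice were littermates without Cre. All mice were males of 2 to 4 months on chow at room temperature. The labels number the replicates and do not say whether BAT and eWAT came from the same animals, so the p values measure the spread between samples.

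Libraries held 6117343 to 30544847 counts assigned to genes. The targeted gene *Nampt* ran from 479 to 1454 CPM (read counts scaled to a common library size, after TMM correction for the composition of each library) in WT BAT and from 109 to 186 in FANKO BAT. It ran from 112 to 310 CPM in WT eWAT and from 101 to 131 in FANKO eWAT, where the ranges overlapped. The fat cell markers of each depot were present. The summed level of 5 brown adipocyte markers was 4227 to 9889 CPM in WT BAT and 1253 to 3400 in FANKO BAT, and that of 5 general adipocyte markers was 10047 to 13158 and 4600 to 8089. In eWAT the general markers summed to 10485 to 17644 CPM in WT and 11601 to 16950 in FANKO mice. In tissue RNA, fewer cells of a type and less RNA per cell cannot be told apart.

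Schlafen proteins are found in mammals and were first described through the growth arrest of T cells. *Slfn1* and *Slfn2* encode short proteins, *Slfn3* and *Slfn4* intermediate ones, and *Slfn5*, *Slfn8* and *Slfn9* long ones with a helicase-like part. *Apol9a* and *Apol9b* encode near-identical proteins of the apolipoprotein L family. Many genes of both families are induced by type I interferon, which acts through the receptor IFNAR and the kinases JAK1 and TYK2. Promoters of induced genes often hold the interferon-stimulated response element, whose core carries a pair of GAAA repeats.

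The 7 Schlafen genes lie together on chromosome 11 of GRCm38 (GENCODE release M21). *Slfn5* (ENSMUSG00000054404) spans positions 82951349 to 82964840 on the forward strand and *Slfn9* (ENSMUSG00000069793) 82978390 to 82991830 on the reverse strand. *Slfn8* (ENSMUSG00000035208) spans 83002158 to 83020810 on the reverse strand, and *Slfn2* (ENSMUSG00000072620) 83065112 to 83070678 on the forward strand. *Slfn1* (ENSMUSG00000078763) at 83116849 to 83122670, *Slfn4* (ENSMUSG00000000204) at 83175186 to 83190216 and *Slfn3* (ENSMUSG00000018986) at 83191330 to 83215154 follow on the forward strand. The *Apol9* genes lie on chromosome 15, *Apol9a* at 77403789 to 77411135 on the reverse strand and *Apol9b* at 77729039 to 77736382 on the forward strand.

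The promoter sequences of the members, which varied together in FANKO tissue, are shown because the response element can be read in some of them. RefSeq promoter windows (GRCm38.p6, 250 bases before to 50 after each start) matched all 9 members. The letters GAAA, any 2 bases and GAAA again, searched on both strands with overlapping matches allowed, were present in the windows of 5 of the 9, against 3.99% of the 27025 genes with a window. The stretches around the matches follow, 5′ to 3′ on the strand of the gene, with the matched letters in capitals (TTTC, any 2 bases and TTTC is the same motif on the other strand). They lie at chr11:82951922-82951981 (+) for *Slfn5*, chr11:83020824-83020883 (-) for *Slfn8*, chr11:82991841-82991900 (-) for *Slfn9*, chr15:77411099-77411164 (-) for *Apol9a* and chr15:77729010-77729075 (+) for *Apol9b*.
Slfn5: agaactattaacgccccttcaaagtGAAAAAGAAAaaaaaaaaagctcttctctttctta
Slfn8: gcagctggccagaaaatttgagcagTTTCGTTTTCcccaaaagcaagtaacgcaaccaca
Slfn9: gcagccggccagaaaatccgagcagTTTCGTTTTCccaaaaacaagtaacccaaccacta
Apol9a: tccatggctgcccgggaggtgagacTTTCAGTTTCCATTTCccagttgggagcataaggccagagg
Apol9b: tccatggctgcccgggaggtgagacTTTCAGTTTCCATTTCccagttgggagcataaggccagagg
The stretches of *Apol9a* and *Apol9b* were identical and held 2 overlapping matches, and the longest run of bases the pair shared within their windows was 278. *Slfn8* and *Slfn9* carried the same matched letters, and the longest run they shared was 20 bases. The windows of *Slfn1*, *Slfn2*, *Slfn3* and *Slfn4* held no match. A second motif, TTCNNNGAA with N for any base, was searched in the same way. It was present in the windows of 0 of the 9, against 9.55% of the 27025 genes. The window of *Slfn4*, the gene with the largest ratio between genotypes in BAT after *Apol9a*, is shown for comparison (chr11:83174936-83175235, +).
Slfn4: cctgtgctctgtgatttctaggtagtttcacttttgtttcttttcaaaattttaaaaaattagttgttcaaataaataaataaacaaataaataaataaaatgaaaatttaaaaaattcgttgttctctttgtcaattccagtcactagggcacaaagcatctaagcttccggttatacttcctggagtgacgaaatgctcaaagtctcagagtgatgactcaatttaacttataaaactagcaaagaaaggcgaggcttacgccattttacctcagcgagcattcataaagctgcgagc
A match is a description of letters in a window and not evidence of binding.

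In BAT, all 9 genes were higher in every one of the 16 FANKO samples than in any of the 16 WT samples. This held at each time point for all 9 as well. Over all genes tested, 12.5% had every FANKO BAT sample above every WT BAT sample, and at ZT 6, 10, 18 and 22 taken alone 25.4%, 26.7%, 20.8% and 24.8% did. This contrast chose the families, so its values are given as a description, without a test, and nothing is read from these shares. *Apol9a* and *Slfn4* had almost no reads in WT BAT and ranked 1 and 6 by fitted rise among all genes tested. The fitted log2 difference between FANKO and WT BAT had a median of 5.94 over the 9 genes, from 1.59 in *Slfn5* to 10.24 in *Apol9a*, beside a median of 0.00 over all genes tested.

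*Slfn4*, known from macrophages and other myeloid cells, had 37 counts over the 16 WT BAT libraries and 49082 over the FANKO libraries. Its level was 0 to 0.645 CPM in WT (median 0.155) and 70.4 to 311 in FANKO BAT (median 168). The ratio of the summed CPM was 975 (95% interval 707 to 1385, from the exact binomial distribution of the counts). Such intervals here cover counting error only, not the spread between mice.

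*Apol9a* was at 0 counts in 10 of the 16 WT BAT libraries and had 1 count in each of the other 6. It ran from 21.8 to 85.3 CPM in FANKO BAT (median 35.7), a ratio of 1508 (693 to 4111). At ZT 22 the FANKO libraries held 4470 counts and the WT libraries none. The FANKO level was 904-fold higher than a floor of 3 counts over the group. The exact interval of the ratio to WT at ZT 22 had a lower limit of 735. *Apol9b* had 16 counts in all over the WT libraries (0 to 0.282 CPM, median 0.0735) and ran from 17.0 to 52.6 CPM in FANKO BAT (median 25.7), a ratio of 372 (229 to 651). Both *Apol9* genes thus went from the edge of detection to a level that every FANKO library showed.

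*Slfn1* and *Slfn2* encode the short proteins, and *Slfn2* is known for keeping T cells quiescent. *Slfn1* ran from 0.0872 to 0.424 CPM in WT BAT (median 0.246) and from 25.5 to 54.8 in FANKO BAT (median 37.3), a ratio of 159 (120 to 217). *Slfn2* ran from 1.14 to 3.30 CPM in WT BAT (median 2.05) and from 55.3 to 110 in FANKO BAT (median 83.9), a ratio of 36.4 (33.1 to 40.2). *Slfn1* was thus near the limit of detection in WT BAT, and *Slfn2* was low but present in every library.

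Among the long genes, *Slfn8* ran from 1.14 to 2.48 CPM in WT BAT (median 1.73) and from 70.6 to 184 in FANKO BAT (median 108), a ratio of 62.5 (56.3 to 69.5). *Slfn9* ran from 1.55 to 3.41 CPM (median 2.60) and from 24 to 60.3 (median 38.8), a ratio of 15.7 (14.3 to 17.2). *Slfn5*, the one member that was abundant in WT BAT, ran from 74.1 to 99.4 CPM there (median 92.1) and from 219 to 364 in FANKO BAT (median 277), a ratio of 2.96 (2.92 to 3.01). The genes that were low in WT BAT had the large ratios and *Slfn5* the small one.

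*Slfn3* is the neighbour of *Slfn4* and lies beside it on the same strand. It was the exception among the genes of low level, at 0.786 to 3.75 CPM in WT BAT (median 2.29) and 5.29 to 12.5 in FANKO BAT (median 8.85), a ratio of 3.70 (3.35 to 4.10). *Slfn3* had 2358 counts over the FANKO BAT libraries, against the 49082 of *Slfn4*, and 11.9% of the 38-base words of its exons also occur in *Slfn4*. How reads that match more than 1 gene were counted is not given in the sources used here, so the levels of *Slfn3* in FANKO BAT are uncertain, and the part of *Slfn4* reads in them was not tested.

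**Figure D1:**
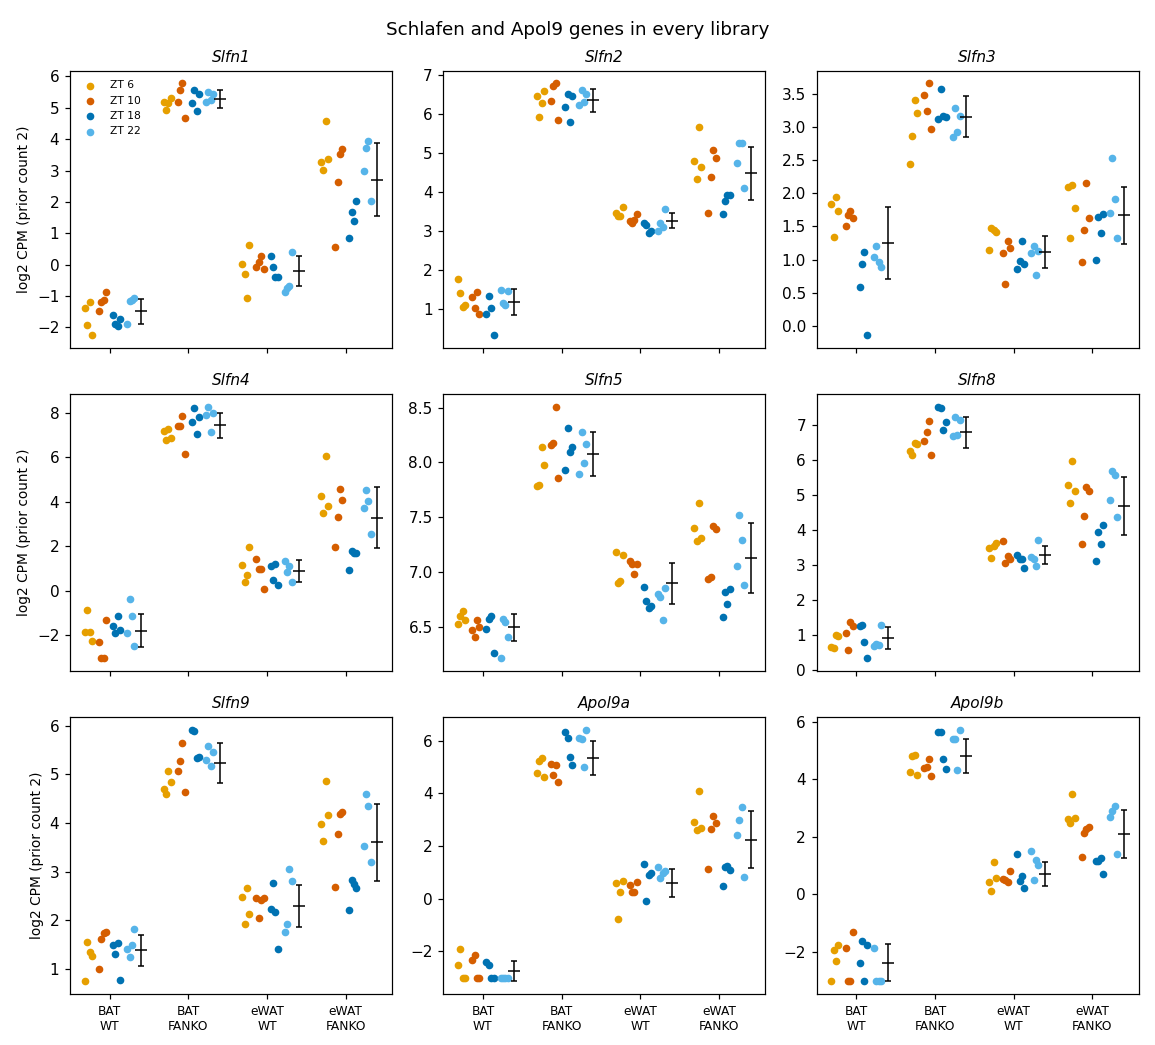
Log2 CPM (prior count 2) of each of the 9 genes in each sample, by depot and genotype, coloured by ZT, with the mean and SD of each combination (n = 16). In BAT the FANKO samples lie above the WT samples for all 9 genes, while in eWAT the 2 genotypes overlap for each gene.

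Most markers of immune cells were also higher in FANKO BAT. By edgeR's test at an FDR of 0.01, all 7 T cell markers (*Cd3e*, *Cd4* and others) were higher there, and their summed level ran from 1.81 to 4.60 CPM in WT BAT and from 50.6 to 159 in FANKO BAT. All 4 NK cell markers were higher (summed 0.611 to 2.58 and 21.3 to 42.4 CPM), as were all 5 monocyte markers (32.6 to 81.9 and 271 to 510 CPM) and all 4 B cell markers (0.612 to 4.90 and 7.67 to 64.8 CPM). Of 8 macrophage markers 7 were higher and 1 lower, and their sum ran from 106 to 199 CPM in WT BAT and from 734 to 1688 in FANKO BAT. Of 5 dendritic cell markers 4 were higher and 1 lower (summed 31.1 to 45.2 and 48.9 to 97.6 CPM). Only 3 of 7 neutrophil markers passed the filter, of which *S100a8* (log2 difference 1.49) and *Csf3r* (3.74) were higher and *S100a9* did not pass (0.12, SE 0.25), and *Ly6g* was at 0 in all 16 WT and in 14 of 16 FANKO BAT libraries. Of all genes tested, 67% were called different in FANKO BAT, 33.1% higher and 33.9% lower. The part of these cell types in the levels of the Schlafen and *Apol9* genes was not tested.

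eWAT was not used to choose the families, and there all 9 genes were higher in FANKO mice (FDR below 0.01, edgeR's quasi-likelihood test of mean level over the 4 time points). Of all genes tested, 50.3% were called different in FANKO eWAT, 27.6% higher and 22.8% lower. The differences were smaller than in BAT, with a median log2 difference of 1.49 over the 9 genes beside -0.02 over all genes tested. The FANKO samples also spread widely, and no member had every FANKO sample above every WT sample, a pattern that 4.57% of all genes showed.

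*Slfn1* differed most in eWAT. It ran from 0.357 to 1.42 CPM in WT (median 0.799) and from 1.36 to 23.9 in FANKO mice (median 7.90), and 15 of the 16 FANKO samples lay above every WT sample. Its log2 difference was 3.23 (SE 0.22, edgeR adjusted p = 1.4e-19), a 9.38-fold rise. *Slfn4* had a median of 1.85 CPM in WT (0.941 to 3.73) and of 12.2 CPM in FANKO mice (1.81 to 66.7), with 12 of 16 FANKO samples above every WT sample. Its log2 difference was 2.67 (SE 0.25, edgeR adjusted p = 4.8e-14). The other FANKO samples, 1 for *Slfn1* and 4 for *Slfn4*, lay within the range of the WT samples.

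The *Apol9* pair came next. The median of *Apol9a* was 1.45 CPM in WT (0.460 to 2.39) and 6.09 CPM in FANKO samples (1.28 to 16.8), with a log2 difference of 1.89 (SE 0.21, edgeR adjusted p = 1.1e-11). *Apol9b* ran from 0.959 to 2.68 (median 1.34) and from 1.52 to 11.2 CPM (median 4.84), with a log2 difference of 1.51 (SE 0.17, edgeR adjusted p = 4.9e-11). For each of them 10 of the 16 FANKO samples lay above every WT sample.

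*Slfn8*, *Slfn9* and *Slfn2* followed. *Slfn8* had 7.37 to 12.9 CPM in WT samples (median 9.18) and 8.56 to 62.0 in FANKO samples (median 28.1), with a log2 difference of 1.49 (SE 0.13, edgeR adjusted p = 7.8e-15). *Slfn9* ran from 2.53 to 8.18 (median 4.92) and from 4.54 to 28.9 CPM (median 13), with a log2 difference of 1.38 (SE 0.15, edgeR adjusted p = 8.8e-12). *Slfn2* ran from 7.60 to 12.1 (median 9.26) and from 10.7 to 50.2 CPM (median 22.7), with a log2 difference of 1.30 (SE 0.12, edgeR adjusted p = 5.7e-14). FANKO samples above every WT sample numbered 13, 11 and 14 of 16 for these 3 genes.

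*Slfn3* and *Slfn5* moved least. *Slfn3* had 1.42 to 2.65 CPM in WT samples (median 2.07) and 1.84 to 5.65 in FANKO samples (median 3.05), with a log2 difference of 0.63 (SE 0.11, edgeR adjusted p = 4.2e-06). *Slfn5* ran from 94.3 to 145 (median 118) and from 96.3 to 198 CPM (median 144), with a log2 difference of 0.24 (SE 0.06, edgeR adjusted p = 0.000375). The rise of *Slfn5* depended on the scaling, since library size alone, without the correction for composition, gave -0.0013 (edgeR adjusted p = 0.988) and moved the median of all genes by -0.25. Without replicate 3 of every group it was 0.11 (edgeR adjusted p = 0.139).

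**Figure D2:**
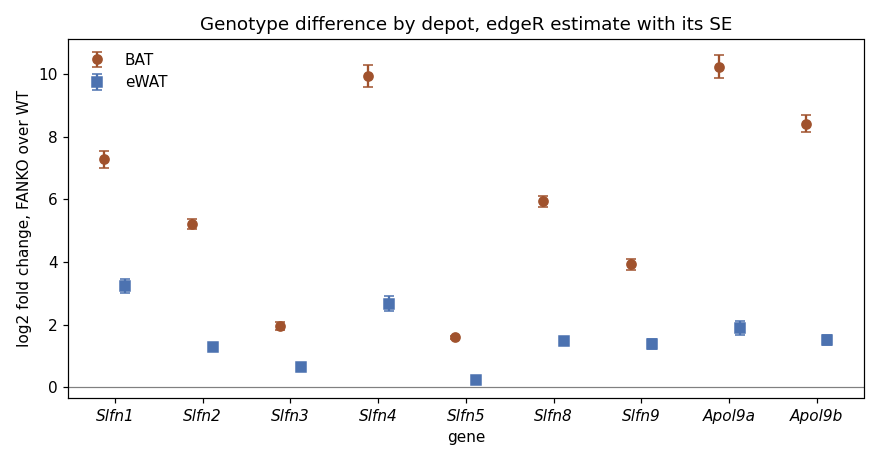
Fitted log2 difference between FANKO and WT mice in BAT and in eWAT for the 9 genes, with standard errors. Every value is above 0, and the BAT values (1.59 to 10.24) exceed the eWAT values (0.24 to 3.23) for each gene.

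Immune cell markers differed less between genotypes in eWAT, where 27.6% of all genes tested were called higher in FANKO mice and 22.8% lower. There 6 of 7 T cell markers were higher in FANKO eWAT (summed 3.47 to 10.6 CPM in WT and 9.61 to 27.3 in FANKO), as were 4 of 4 NK cell markers (1.57 to 8.13 and 7.14 to 25 CPM). All 4 B cell markers were lower. Of 8 macrophage markers 3 were higher, 1 was lower and 4 did not pass, and their sum ran from 666 to 953 CPM in WT and from 623 to 1068 in FANKO eWAT. Of 5 monocyte markers 3 were higher and 1 lower (summed 377 to 914 and 274 to 601 CPM), and 2 of the 3 neutrophil markers tested and 3 of 5 dendritic cell markers were higher. The monocyte sum was carried by *Fn1*, which was lower in FANKO eWAT (median 560 CPM in WT and 269 in FANKO), while *Ly6c2* (log2 difference 2.54), *Plac8* (1.89) and *Chil3* (1.04) were higher. *Ly6c2* and *Plac8* were also called rhythmic in FANKO eWAT (edgeR adjusted p = 5.5e-05 and 4.7e-05). The summed macrophage levels overlapped between genotypes in eWAT, while the T and NK cell sums were mostly higher in FANKO mice. The part of these cells in the eWAT levels of the 9 genes was not tested.

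The order of the depots differed between genotypes. In WT mice 5 of the 9 genes (*Slfn2*, *Slfn4*, *Slfn8*, *Apol9a* and *Apol9b*) were lower in every BAT sample than in any eWAT sample, a pattern that 15.1% of all genes showed. In FANKO mice 7 of the 9 (all but *Slfn3* and *Slfn9*) were higher in every BAT sample than in any eWAT sample, against 5.18% of all genes, while 9.01% were lower in every FANKO BAT sample than in any FANKO eWAT sample, none of the members among them. These comparisons share the BAT samples that chose the families and are a description. The log2 difference of BAT from eWAT had a median of -2.10 over the 9 genes in WT mice, from -5.35 in *Apol9a* to 0.16 in *Slfn3*, and of 2.05 in FANKO mice, from 0.95 in *Slfn5* to 3.95 in *Slfn4*. For *Slfn4* the fitted difference was -3.32 (SE 0.55) in WT and 3.95 (SE 0.21) in FANKO mice.

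Levels were compared between genes per kilobase of exon. *Slfn5* led in WT BAT at a median of 14.6 CPM per kb, above *Slfn2* at 1.23, and also led in WT eWAT at 18.6, above *Slfn2* at 5.56 and *Slfn8* at 2.24. In FANKO BAT *Slfn2* had 50.4 CPM per kb, *Slfn5* 43.8, *Slfn4* 42.4, *Slfn8* 26.4 and *Slfn1* 20, while *Apol9b* had 14.1, *Slfn9* 6.51, *Apol9a* 6 and *Slfn3* 2.59. In FANKO eWAT the order was led by *Slfn5* (22.8), *Slfn2* (13.6), *Slfn8* (6.87), *Slfn1* (4.24) and *Slfn4* (3.07). *Slfn5* was thus first in 3 of the 4 combinations. In WT BAT *Slfn4* (0.0392), *Apol9b* (0.0403) and *Apol9a* (0) were at the edge of detection, where their order is not determined.

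The ratio between close copies differed with genotype in BAT. *Slfn8* had fewer counts than *Slfn9* in most WT BAT libraries (median ratio 0.709, range 0.464 to 1.04) and more in every FANKO BAT library (median 2.93, range 2.59 to 3.36), and the ratio was 2.04 in WT eWAT and 2.14 in FANKO eWAT (medians). *Apol9a* took 60.3% of the counts of the *Apol9* pair in FANKO BAT (95% Wilson interval 59.7 to 61.0; libraries 55 to 62.2%), 48.9% in WT eWAT (45.7 to 52.1%) and 55.5% in FANKO eWAT (53.7 to 57.2%). In WT BAT the pair had 22 counts in all, so its share of 27.3% (13.2 to 48.2%) is imprecise. Of the 38-base words of *Apol9b*, 59.6% also occur in *Apol9a*, so how reads fell to each of the pair rests on the authors' counting. Words shared with any other gene made up 23.7% of *Slfn3*, 21.1% of *Slfn8*, 18.6% of *Apol9a*, 17.6% of *Slfn9*, 16.5% of *Slfn4*, 7.25% of *Slfn2*, 4.27% of *Slfn5* and 1.26% of *Slfn1*.

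Levels in FANKO eWAT varied with the time of day. A rhythm was called in FANKO eWAT for 8 of the 9 genes, all but *Slfn3* (edgeR's joint test of the cosine and sine terms of a 24 h cycle, FDR below 0.01), against 6.77% of all genes tested. All 8 had their highest mean at ZT 6 and their lowest at ZT 18. In WT eWAT 0 of the 9 were called by edgeR (1 had an unadjusted p under 0.05, and DESeq2 and limma-voom also called 0), against 9.38% of all genes tested.

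*Slfn4* in FANKO eWAT measured 19.0, 11.1, 66.7 and 13.7 CPM in the ZT 6 samples, 3.8, 9.78, 23.8 and 17.0 in those of ZT 10, 1.81, 3.37, 3.13 and 3.09 in those of ZT 18 and 13.2, 23.3, 16.3 and 5.83 in those of ZT 22. All 4 samples of ZT 18 lay below every sample of the other times. From ZT 6 to ZT 18 its amplitude was 2.87 on the log2 scale (SE 0.61, edgeR adjusted p for rhythm 3.3e-06). Against WT samples of the same time the ratio of summed CPM was 15.2, 7.19, 1.82 and 9.36 in the same order of times.

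*Apol9a* in FANKO eWAT had mean levels of 9.12 ± 5.15, 6.03 ± 2.82, 1.93 ± 0.439 and 6.50 ± 4.04 CPM at ZT 6, 10, 18 and 22 (SD, n = 4 each), with an amplitude of 2.07 (SE 0.38, edgeR adjusted p = 0.000184). *Slfn1* was at 12.9 ± 7.37, 7.89 ± 5.20, 2.83 ± 0.966 and 10 ± 5.14 CPM, with an amplitude of 2.07 (SE 0.43, edgeR adjusted p = 4.7e-05). *Slfn8* was at 40.6 ± 15, 26.3 ± 12, 13.4 ± 3.91 and 37.2 ± 14.8 CPM (edgeR adjusted p = 2.1e-05). The genotypes overlapped most at ZT 18. At that time 2 of the 9 genes (*Slfn1* and *Slfn2*) had every FANKO eWAT sample above every WT sample, against 8 at ZT 6 (all but *Slfn3*), 6 at ZT 10 and 7 at ZT 22 (all but the *Apol9* pair). Of all genes, 21.6%, 22.2%, 13.5% and 16.4% showed this at ZT 6, 10, 18 and 22.

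The rhythm calls in FANKO eWAT depended on which samples were kept. Without the ZT 18 samples of every group, and with time point as a factor, edgeR called 0 of the 9 in FANKO eWAT. There 3 had an unadjusted p under 0.05 (lowest adjusted p = 0.126), and 3.36% of all genes tested were called. No other time point was left out, so the part of ZT 18 cannot be told apart from that of fewer samples and times. Without replicate 1 of every group 5 were called, and without replicate 3 only *Slfn4*, *Slfn8* and *Apol9b*. The same 8 genes as with all samples were called without replicate 2 and without replicate 4. Replicate 3 at ZT 6 was the highest of its group for all 9 genes, with a summed level of 462 CPM beside 297, 248 and 275 in the other 3, and without that library 7 were called, *Slfn2* no longer (edgeR adjusted p = 0.0213). That library was also the highest of the 16 FANKO eWAT libraries in summed markers of T cells (27.3 CPM), NK cells (25), macrophages (1068), monocytes (601) and neutrophils (8.48), whose part in its levels was not tested. The mean levels of all 9 genes were still higher in FANKO eWAT without it, with a log2 difference of 2.53 for *Slfn4* and adjusted p values of at most 0.000877 by edgeR. The difference between the rhythms of WT and FANKO mice in eWAT passed for 0 of the 9 by edgeR (8 had an unadjusted p under 0.05, lowest adjusted p = 0.0108 for *Apol9a*), where 1.15% of all genes passed. DESeq2 called *Apol9a* (adjusted p = 0.00516) and limma-voom 0. By edgeR both *Apol9* genes were called when their counts were summed into a single value (adjusted p = 0.00989). Both were also called with the replicate number as a block (edgeR, lowest adjusted p = 0.00218).

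**Figure D3:**
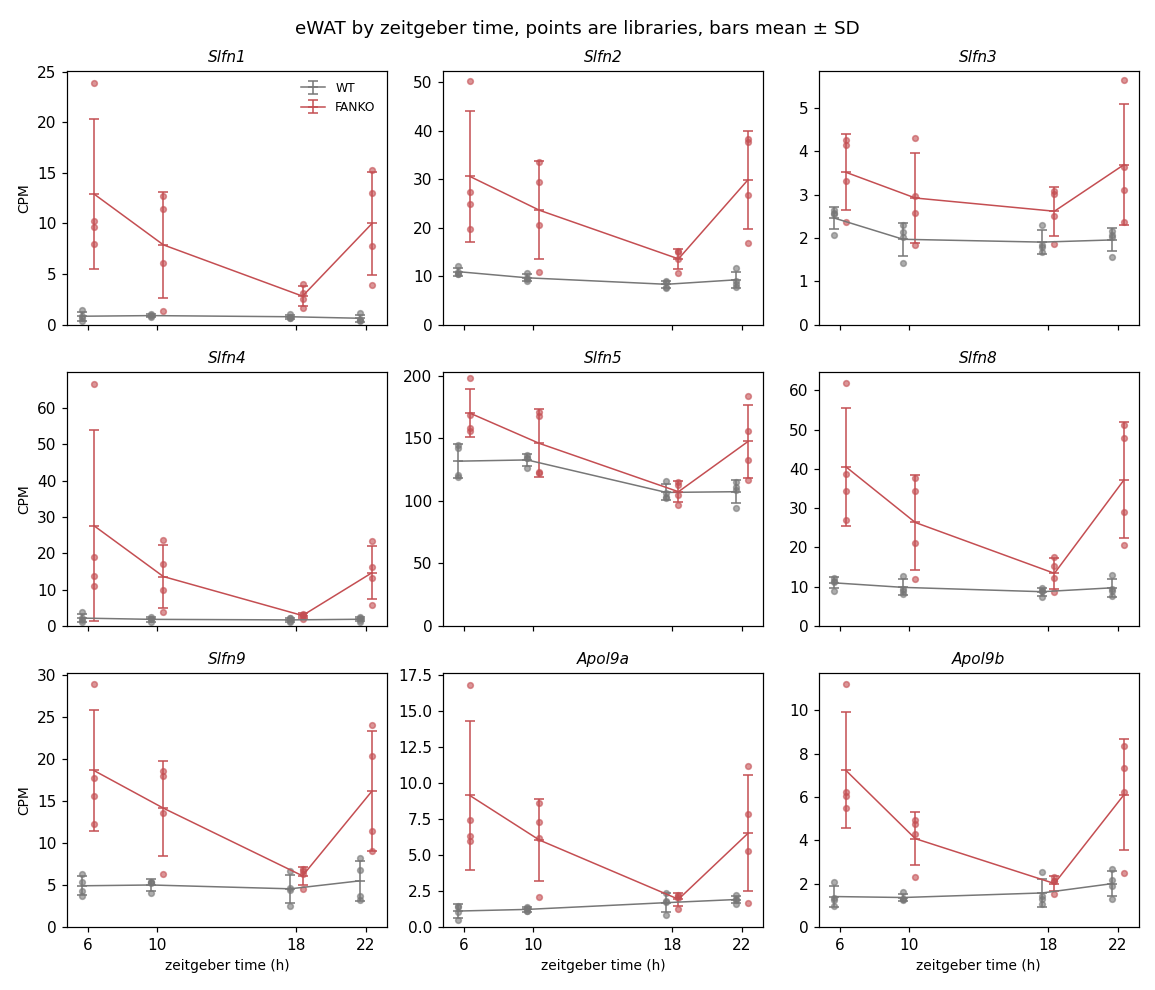
CPM (linear axis) of the 9 genes in eWAT against zeitgeber time in h, each point a sample and each line the mean of a genotype with its SD (n = 4 per time). FANKO samples lie nearest to the WT samples at ZT 18, and for *Slfn4* they fall from 11.1 to 66.7 CPM at ZT 6 to 1.81 to 3.37 at ZT 18.

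In BAT edgeR called 1 of the 9 genes rhythmic in each genotype. In FANKO BAT edgeR called *Apol9a* (adjusted p = 0.00677), against 2.84% of all genes tested. Its mean levels were 32.3 ± 8, 28.9 ± 6.1, 56.2 ± 22.5 and 63.1 ± 22.6 CPM at ZT 6, 10, 18 and 22 (SD, n = 4 each), higher in the dark phase, whereas the FANKO eWAT level was lowest at ZT 18. The call was lost without replicate 1, 2 or 4 of every group (edgeR, 0 of 9), without the ZT 18 samples, with library size scaling alone and with time point as a factor. DESeq2 called 0 of the 9 there (4 had an unadjusted p under 0.05) and limma-voom 3 (*Slfn8*, *Apol9a* and *Apol9b*). In WT BAT edgeR called *Slfn3* (adjusted p = 0.000375), against 13.9% of all genes tested. Its mean levels were 3.21 ± 0.574, 2.99 ± 0.211, 1.5 ± 0.55 and 1.92 ± 0.190 CPM at the same times (SD, n = 4 each). That call was lost without replicate 4 of every group (edgeR adjusted p = 0.0223) and without the ZT 18 samples (0.0764). It was also lost when the counts of *Slfn3* and *Slfn4* were summed (edgeR, 0 of 9 called, lowest adjusted p = 0.313). Over the WT BAT libraries *Slfn3* had 468 counts and *Slfn4* 37, and why the call was lost was not tested. A rhythm difference between genotypes in BAT passed for 0 of the 9 by edgeR (1 had an unadjusted p under 0.05, lowest adjusted p = 0.0126 for *Slfn3*) and for *Slfn3* by DESeq2 (adjusted p = 0.00722), against 2.76% of all genes tested by edgeR.

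The 9 genes varied together from sample to sample in FANKO tissue. The deviations of log2 CPM from the mean of each group of depot, genotype and time had a median Pearson's r of 0.89 over the 36 pairs of genes in FANKO eWAT (n = 16 samples), from 0.62 for *Slfn3* and *Apol9b* to 0.98 for *Slfn2* and *Slfn4*. In FANKO BAT the median was 0.68, with 0.97 for *Apol9a* and *Apol9b*, which share sequence, and 0.12 for *Slfn2* and *Apol9a*. It was 0.07 in WT BAT and 0.24 in WT eWAT, where most levels were low. The points of such a correlation share a library and its scaling factor. The summed CPM of the 9 genes ran from 81.4 to 110 in WT BAT, from 527 to 1122 in FANKO BAT, from 127 to 181 in WT eWAT and from 129 to 462 in FANKO eWAT.

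**Figure D4:**
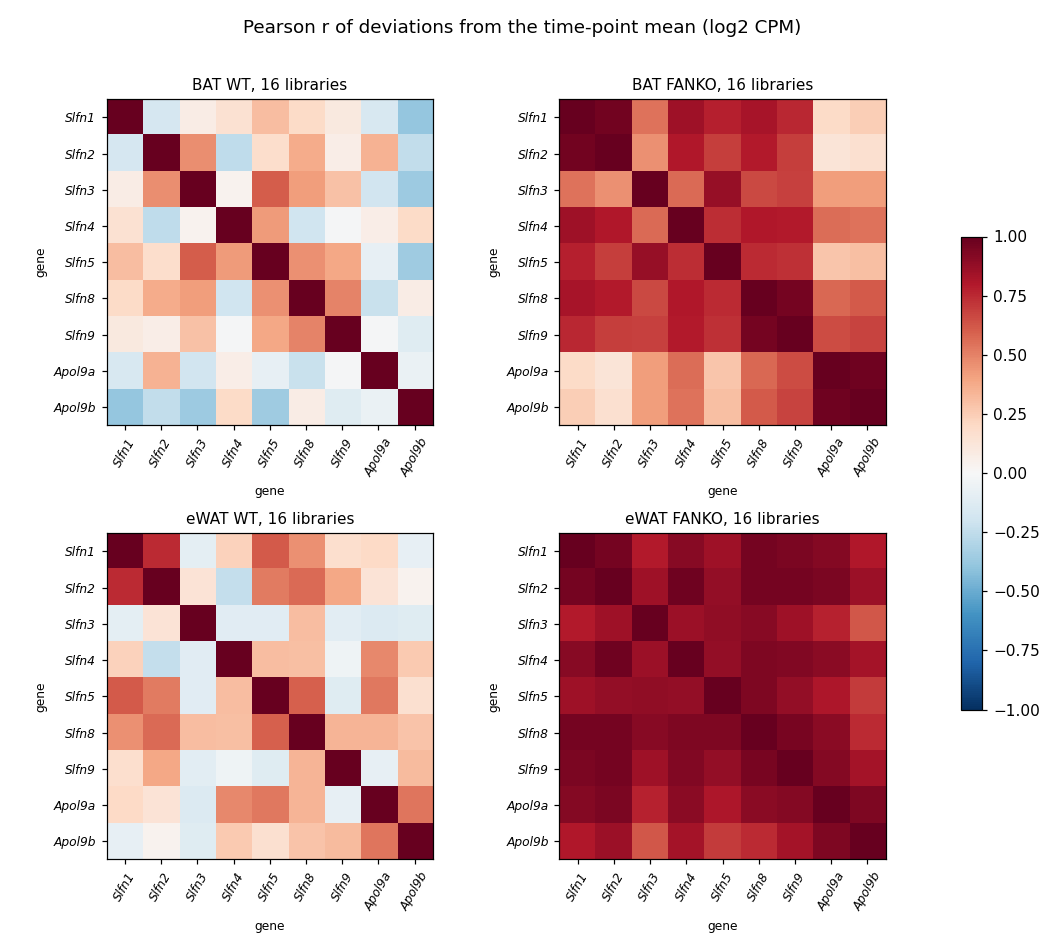
Pearson's r between the deviations of log2 CPM of each pair of the 9 genes from their group means, in each depot and genotype (n = 16 samples each). The median r was 0.89 in FANKO eWAT and 0.68 in FANKO BAT, beside 0.24 in WT eWAT and 0.07 in WT BAT.

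The genes most like them across all 64 samples, by r of the same deviations among 14844 genes, are given for each member. For *Slfn4* they were *H2-T24* (r = 0.83, Spearman's rho = 0.78), *Herc6* (0.75, 0.68) and *Ms4a6d* (0.73, 0.66). For *Apol9a* they were *Phf11d* (0.79, 0.69), *Rsad2* (0.79, 0.73) and *Cmpk2* (0.78, 0.71), of which *Rsad2* encodes the antiviral protein viperin. For *Slfn8* they were *Ddx58* (0.86, 0.82), which encodes the RNA sensor RIG-I, *Dtx3l* (0.85, 0.84) and *Rnf213* (0.84, 0.78). For *Slfn5* they were *Parp14* (0.79, 0.77), *Stat2* (0.75, 0.69) and *Rnf213* (0.75, 0.69). For *Slfn1* they were *Ifi47* (0.81, 0.69), *Ms4a4c* (0.81, 0.74) and *Parp14* (0.81, 0.70), and for *Slfn2* *Ifi204* (0.79, 0.74), *Trim30d* (0.79, 0.74) and *Rasgef1b* (0.77, 0.73). For *Slfn3* they were *Ddx58* (0.71, 0.66), *Mndal* (0.71, 0.66) and *Rnf213* (0.71, 0.64), and for *Slfn9* *Aida* (0.77, 0.77), *Parp9* (0.76, 0.77) and *Gbp3* (0.75, 0.72). For *Apol9b* they were *Dpy19l1* (0.71, 0.70), *Tor1aip2* (0.70, 0.71) and *Usp18* (0.69, 0.67). *Ddx58*, *Parp14* and *Rnf213* each stood in the lists of more than 1 member.

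A list of 33 interferon-stimulated genes, none of them a member of either family, gave 32 that were tested. In FANKO eWAT 30 were higher, *Ifi27l2a* was lower (log2 difference -1.09) and *Ifi205* did not pass (0.08), with a median of 2.02, where 27.6% of all genes tested were called higher. In FANKO BAT 32 were higher, with a median of 5.11, where 33.1% of all genes tested were called higher. *Oasl1* (3.97, SE 0.26, edgeR adjusted p = 2.3e-20) and *Oas3* (3.97, SE 0.24, edgeR adjusted p = 9.1e-22), which belong to the oligoadenylate synthetase family, rose most in eWAT. *Ifit1*, which binds foreign RNA, followed (3.58, SE 0.22, edgeR adjusted p = 2.7e-21). A rhythm in FANKO eWAT was called by edgeR for 28 of the 32, against 6.77% of all genes tested. It was called for 16 without replicate 3 of every group (3.27% of all genes) and for 20 without replicate 1 (3.47%). Without replicate 2 it was called for 28 (3.15%) and without replicate 4 for 29 (5.15%). As for the members, it was called for 0 without the ZT 18 samples, where 3.36% of all genes were called.

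Of 28 genes of the interferon pathway 24 were tested, and 18 were higher and 1 lower in FANKO eWAT, beside 27.6% and 22.8% of all genes tested. Among the ligands *Ifnb1*, which encodes interferon beta, had 20 counts over the FANKO eWAT libraries, of which 8 were at 0, and none over the WT libraries. The FANKO level was 7.72-fold higher than a floor of 3 counts over the group. The exact interval of the ratio to WT had a lower limit of 5.72 (counting error only). The fitted log2 difference was 2.82 (edgeR adjusted p = 0.00301), and its size is imprecise because the WT libraries held no count. In BAT *Ifnb1* had 296 counts in FANKO and 1 in WT libraries, a ratio of 218 (38.7 to 8621, counting error only). *Ifng*, which encodes interferon gamma, had 64 counts in FANKO and 21 in WT eWAT libraries. Its log2 difference there was 1.66 (SE 0.42, edgeR adjusted p = 0.000271). In BAT *Ifng* had 179 counts in FANKO and 1 in WT libraries, a ratio of 132 (23.3 to 5225, counting error only). *Ifnk* was lower in FANKO eWAT (log2 difference -0.87).

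In FANKO eWAT 27.6% of all genes tested were called higher. Of the receptors 2 of 4 were higher there, of the signalling genes 6 of 8 and of the nucleic acid sensors 8 of 9. *Irf7*, the regulator that amplifies interferon expression, was among those that rose (log2 difference 3.21, SE 0.17, edgeR adjusted p = 3.9e-24), as was *Zbp1*, a sensor of nucleic acids in the Z form (2.54, SE 0.20, edgeR adjusted p = 6.4e-17).

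**Figure D5:**
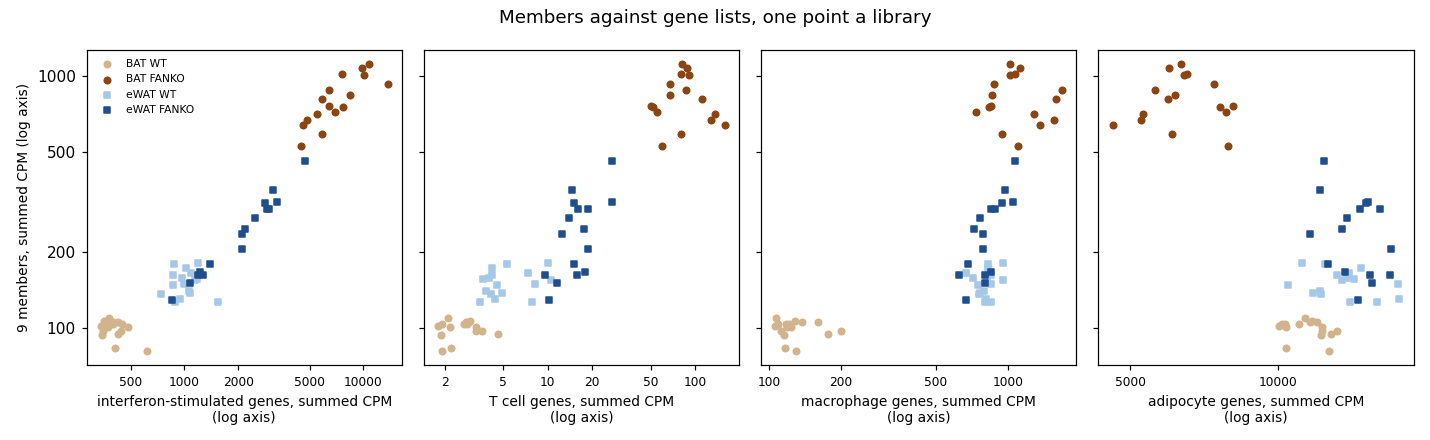
Summed CPM (log axes) of the 9 genes against that of the interferon-stimulated genes and of the T cell, macrophage and adipocyte markers, each point a sample of 1 depot and genotype. In FANKO eWAT r with the interferon-stimulated genes was 0.99, and with the macrophage markers 0.77 (n = 16 samples each).

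*Slfn5* made up much of the summed level of the 9 genes in FANKO eWAT, with a median of 144 CPM beside 242 for the sum. Across the 16 FANKO eWAT samples the summed level of the 9 genes followed that of the interferon-stimulated genes (r = 0.99, rho = 0.97, and 0.98 without the 2 samples farthest from the median). With the NK cell markers r was 0.86 (rho 0.84, 0.81 without those 2), with the neutrophil markers 0.82 (0.80, 0.73), with the macrophage markers 0.77 (0.72, 0.67), with the monocyte markers 0.69 (0.66, 0.43), with the T cell markers 0.66 (0.53, 0.47) and with the skeletal muscle markers 0.65 (0.61, 0.63). It was 0.30 with the dendritic cell, 0.25 with the epididymis, -0.32 with the B cell, -0.33 with the adipocyte, -0.55 with the brown adipocyte and -0.56 with the endothelial markers. The skeletal muscle sum was carried by *Acta1* (23.3 to 113 CPM in FANKO eWAT), while *Ckm*, *Myh4*, *Myh1* and *Mylpf* each reached at most 0.72 CPM there. Within time points r was 0.98 for the interferon-stimulated genes and 0.96 for the macrophage markers. In FANKO BAT r was 0.82 with the interferon-stimulated genes, 0.64 with the NK cell markers, -0.06 with the macrophage markers and -0.04 with the T cell markers. With the interferon-stimulated genes r was -0.49 in WT BAT and -0.02 in WT eWAT. These samples differ in time of day, and each point shares a library, so the values describe the samples and carry no p.

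The other genes of the 2 families that passed the filter moved in both directions in eWAT. *Slfn10-ps*, a pseudogene that shares sequence with *Slfn8* and *Slfn9*, was higher in FANKO eWAT (log2 difference 0.82, SE 0.16, edgeR adjusted p = 1.3e-05), as were *Apol7c* (1.80, SE 0.39), *Apol7e* (1.93, SE 0.37) and *Apol10b* (0.68, SE 0.10). *Apol6* was lower (-0.78, SE 0.06, edgeR adjusted p = 3.5e-17), as was *Apol7a* (-0.50, SE 0.17, edgeR adjusted p = 0.00862), while *Apol11b* (-0.05) and *Slfnl1* (-1.30, SE 0.53) did not pass. In BAT the fitted differences were 5.17 for *Slfn10-ps*, 6.13 for *Apol7c*, 6.29 for *Apol7e*, 5.23 for *Apol7a*, 1.86 for *Apol10b* and 0.75 for *Apol6*, beside 0.39 (SE 0.80) for *Slfnl1* and -0.48 (SE 0.34) for *Apol11b*. *Apol6* ran from 201 to 392 CPM in WT eWAT and from 131 to 212 in FANKO eWAT. *Apol6* and *Apol7a* thus had fitted differences above 0 in BAT and were lower in FANKO eWAT.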

How the data were processed

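Stranded total RNA libraries, depleted of ribosomal RNA, were sequenced as 38-bp paired-end reads from 64 samples of BAT and eWAT. The authors aligned reads with STAR 2.5.3a to GRCm38.p5 (GENCODE version 15 as they state it) and deposited whole-number counts of reads per gene from featureCounts 1.5.3, 1 column per sample, without normalization or pooling. The strand and multi-mapping options of the counting are not given in the sources used here. Submitters' processing notes also name FastQC 0.11.5 and MultiQC 1.2. Reads that match several genes, or a gene and its antisense partner (*Slfn5* and *Slfn5os*, which had 212 counts in all), may be dropped or shared by that counting.

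The deposited counts were fitted with edgeR 4.0.16, DESeq2 1.42.0 and limma 3.58.1 in R 4.3.3, and described with Python 3.11.15, numpy 2.4.6, scipy 1.17.1, pandas 2.3.3 and matplotlib 3.10.9. Genes were kept by filterByExpr on the 16 groups (minimum count 10, minimum total 15), which left out 32387. TMM factors scaled the libraries. A single quasi-likelihood model with 12 coefficients (mean, cosine and sine over 24 h for each combination of depot and genotype) was fitted to all samples, with Benjamini-Hochberg adjustment across the tested genes and an FDR threshold of 0.01. Log2 CPM used a prior count of 2. Amplitude is the highest minus the lowest time-point mean of log2 CPM. Intervals are 95% and floors 3 counts. Symbols, positions and exonic lengths came from GENCODE M21.

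The members, the gene lists and the markers were chosen with earlier results of these data known. The text names the 9 members, the other genes of both families that passed the filter, *Irf7* and the 3 tested genes with the largest absolute eWAT difference of the pathway and interferon-stimulated lists, and the 3 genes most like a member. *H2-T24* and the like were searched among genes with a mean log2 CPM above 0. *Ifi27l2a*, *Ifi205* and *Ifnk* were named after their values were seen, as the exceptions to a count, single neutrophil, monocyte and skeletal muscle markers likewise, and *Apol6* and *Apol7a* as the members of their family that fell. *Ifng* was also named after its values were seen, as the other ligand that was higher in FANKO eWAT. All 96 pairs of libraries within groups differed by more than sampling noise (chi-square per degree of freedom 5.55 to 165), so each counted as 1 sample. Alternatives were DESeq2, limma-voom, RLE factors, library size alone, no mitochondrial genes, other filters on low counts, separate fits for each depot, gene pairs summed, time point as a factor, a replicate block, an FDR of 0.05 and each replicate left out. The pairs summed were *Slfn3* with *Slfn4*, *Slfn8* with *Slfn9* and *Apol9a* with *Apol9b*. Leaving out the ZT 18 samples, or replicate 3 of FANKO eWAT at ZT 6, was added after the data were seen. The authors' other experiments were not analysed here. One gene of the naming rule is not reported here.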

Additional observations from a re-analysis of the deposited data

Results flagged for a closer look

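Of 143 groups of 4 samples in which a member varied, 9 held a sample far from the other 3, where chance gives about 1 in 20. In WT BAT at ZT 22, *Slfn1* was low in replicate 1 (0.148 CPM, 1 count, nearest 0.323), *Slfn8* was high in replicate 4 (2.33 CPM, nearest 1.53), and *Apol9b* was at 0.148 CPM in replicate 1 (1 count) and at 0 in the others. In WT BAT at ZT 10, *Slfn9* was low in replicate 1 (1.87 CPM, nearest 2.96). In FANKO BAT at ZT 18, *Slfn3* was high in replicate 2 (11.7 CPM, nearest 8.86). In WT eWAT, *Slfn1* was high in replicate 4 at ZT 22 (1.19 CPM, nearest 0.496), *Slfn3* was low in replicate 1 at ZT 6 (2.08 CPM, nearest 2.55), and *Slfn9* was low in replicate 2 at ZT 10 (4.02 CPM, nearest 5.22). In FANKO eWAT at ZT 18, *Slfn4* was low in replicate 1 (1.81 CPM, nearest 3.09). Of these 9 values, 2 rest on 1 count.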

How the results depend on the processing

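All 9 genes were called higher in FANKO eWAT under the other tools, filters and designs, and 8 under library size alone and without replicate 3 (8 to 9 over the replicates left out). *Slfn5* turned to -0.0013 (edgeR adjusted p = 0.988) under library size alone, which moved the median of all genes by -0.25 in eWAT and 0.59 in BAT. The number of interferon-stimulated genes called higher was 30 under every alternative. The median BAT difference of the members was 5.94, 6.54 under library size alone and 5.88 to 6 without a replicate. The WT difference between depots was -2.10, -2.85 under library size alone and -2.18 to -1.99 without a replicate, and the FANKO difference was 1.92 to 2.25 without a replicate. Rhythms over the 4 combinations numbered 10, 0 without the ZT 18 samples, 6 to 9 without a replicate and 13 at an FDR of 0.05. Rhythm differences numbered 0, but 2 with DESeq2, 1 with a filter of 1 CPM, 3 with the replicate block, 2 with gene pairs summed (1 value shared by the *Apol9* pair) and 3 at an FDR of 0.05. The cause of these changes was not tested, and no time point other than ZT 18 was left out. Of the single-gene eWAT differences 151 of 153 kept direction and call, and of the FANKO eWAT rhythms 134 of 153, with 18 weaker.

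Most samples with the same replicate number did not deviate together. The deviations of same-numbered WT and FANKO samples had a median correlation of 0.06 in BAT and 0.04 in eWAT, with 3 of 16 pairs above 0.1 in each depot. Between BAT and eWAT the medians were 0.05 in WT and 0.06 in FANKO mice, with 5 of 16 pairs above 0.1 in each genotype, beside -0.02 for other numbers. The replicate block left 9 members and 30 interferon-stimulated genes higher in eWAT and 10 rhythms, called 3 rhythm differences (*Slfn3* in BAT, *Apol9a* and *Apol9b* in eWAT), with a median BAT difference of 5.97. WT BAT counts of *Slfn1*, *Slfn4* and the *Apol9* genes are too few to rank samples by them.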
